A study of Homo sapiens with 6 samples.

Results

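STAT3 and the cytokine receptor genes around it were examined as a set of 10 genes: the receptor chains IL4R, IL13RA1 and IL6ST, the Janus kinases JAK1 and JAK2, the transcription factors STAT3, STAT5B and STAT6, and the inhibitors SOCS2 and SOCS3. Every probe that the platform annotation pairs with these genes was taken, which gave 16 of the 47310 probes on the array, for 10 of the 20037 genes that have a probe. RNA came from HCT116, a colorectal carcinoma cell line, as 3 samples of its PTTG1-/- derivative and 3 samples of the PTTG1+/+ line, grown in standard culture with no further agent in either. PTTG1, which encodes securin, the inhibitor of sister chromatid separation, was removed in the PTTG1-/- cells by homologous recombination. Each genotype is represented by its own cell line, so any other difference between the lines and the loss of PTTG1 cannot be told apart. Whether the 3 samples of each line were grown as separate cultures is not stated, and the p-values therefore cover only the spread among these samples, part or all of which may be technical.

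Class I and class II cytokine receptors carry no kinase of their own. Janus kinases bound to their tails are activated when a ligand joins the receptor chains, and they phosphorylate STAT factors, which pair, enter the nucleus and bind DNA. IL6ST, also called gp130, is the shared signalling chain for the interleukin 6 family and is known for activating STAT3, whereas IL4R and IL13RA1 together form the receptor for interleukin 4 and interleukin 13 on epithelial cells and are known for activating STAT6. Genes of the SOCS family are themselves STAT targets, and their products bind receptors or kinases and end the signal. In colorectal carcinoma STAT3 is best known as a factor that is kept active by cytokines of the tumour tissue. The arrays measured mRNA only, and neither receptor protein nor STAT phosphorylation was read.

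On these beadchips a probe is brighter the more of its transcript the sample holds. Levels below are log2 intensities after background correction and quantile normalisation, unless given as raw or summed. All differences are PTTG1-/- minus PTTG1+/+ on that log2 scale. Since probes bind with different strength, the level of a gene is set only against the same probe in the other line. In bulk RNA, fewer cells of a type and less RNA per cell cannot be told apart. The summed intensity was between 14796418 and 16708425 on the PTTG1-/- arrays and between 14804249 and 15565151 on the PTTG1+/+ arrays, and 35.7% to 37.3% of all probes lay above background on an array (detection p under 0.05). Pairs of arrays correlated at 0.993 to 0.996 within a line and at 0.986 to 0.988 across the lines. Both probes of the targeted gene were lower in the PTTG1-/- samples, though by unlike amounts. At one PTTG1 probe (ILMN_1753196) the PTTG1-/- arrays averaged 4.96 ± 0.12, not above background on any, against 10.79 ± 0.05 on the PTTG1+/+ arrays (SD, n = 3 each). That is at least 49.2-fold lower (limma, adjusted p = 2.23e-09). A second PTTG1 probe (ILMN_2042771) averaged 11.13 ± 0.22 on the PTTG1-/- arrays and 12.03 ± 0.06 on the PTTG1+/+ arrays, a log2 difference of -0.91 (adjusted p = 0.00154). This brighter probe stayed above background on all 3 PTTG1-/- arrays, and the source of that signal was not tested.

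The stretch just before the transcription start is shown for the 3 members whose mRNA differed between the lines by the test across all probes (IL4R, IL13RA1 and STAT3), because it is the DNA from which these transcripts start. The sequences are RefSeq's, in build GRCh38.p14, each the 250 bases before the gene's start written in the direction of transcription, and capitals mark the letters GGGCGG or CCGCCC. This run of letters is the GC box, the element that factors of the SP family bind.

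IL4R, chr16:27313724-27313973, plus strand: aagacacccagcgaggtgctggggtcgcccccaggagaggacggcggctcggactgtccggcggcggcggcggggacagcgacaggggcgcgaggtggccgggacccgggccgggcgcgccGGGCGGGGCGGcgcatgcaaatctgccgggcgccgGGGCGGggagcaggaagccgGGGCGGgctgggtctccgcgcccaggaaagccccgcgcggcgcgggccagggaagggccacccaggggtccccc
IL13RA1, chrX:118727356-118727605, plus strand: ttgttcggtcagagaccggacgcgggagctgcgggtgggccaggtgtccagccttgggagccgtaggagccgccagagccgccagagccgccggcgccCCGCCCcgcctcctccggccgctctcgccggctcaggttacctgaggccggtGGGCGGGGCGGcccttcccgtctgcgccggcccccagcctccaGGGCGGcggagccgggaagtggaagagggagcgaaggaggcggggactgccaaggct
STAT3, chr17:42388443-42388692, minus strand: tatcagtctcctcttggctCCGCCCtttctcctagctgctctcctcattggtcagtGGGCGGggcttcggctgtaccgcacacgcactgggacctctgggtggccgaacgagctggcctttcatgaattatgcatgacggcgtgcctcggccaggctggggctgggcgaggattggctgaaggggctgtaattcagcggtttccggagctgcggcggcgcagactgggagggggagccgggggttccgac

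The windows of IL4R and IL13RA1 each held 4 copies of the GC box, counting copies that overlap, at a GC content of 80.8% and 75.6%. That of STAT3 held 2 copies, 1 in each orientation, at 64.4% GC. Of the 10 members, 9 had an entry in the promoter table, and SOCS2 did not. A GC box was present in 6 of these 9 windows (66.7%), namely those of IL4R, IL13RA1, IL6ST, STAT3, STAT5B and STAT6, and in 42.6% of all 35116 promoter windows of the same length, on either strand. The 3 windows without it were those of JAK1, JAK2 and SOCS3. The motif TTCNNNGAA, the spacing that most STAT factors bind, was in 0 of the 9 windows and in 6.6% of all. TTCNNNNGAA, the wider spacing that STAT6 binds, was in 0 of the 9 windows and in 5.4% of all, and TATAAA was in 0 of the 9 and in 10.7% of all. The 35116 windows are all entries of the promoter table, whether or not their genes were detected here, while every member was. The shares of members and of all windows thus cover unlike sets of genes. These matches describe the letters of a short window and were searched after the sequences had been read.

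Of the 10 members, 3 were higher in PTTG1-/- cells and 0 were lower by the test across all probes. The 3 were the receptor chains IL4R and IL13RA1 and the transcription factor STAT3, by 1.27-fold to 1.37-fold. All 10 genes had at least 1 probe above background on 3 or more arrays, and 13 of the 16 probes passed that filter. Over all 10642 genes tested, 14.4% were called, 7.95% as higher and 6.46% as lower, and 12.8% of all 17357 probes tested were called. The median difference was 0.12 over the 10 members and 0.00 over all genes. Without adjustment, 6 of the 13 member probes had a p under 0.05, against 4907 of all 17357 probes. With 3 arrays a line the exact permutation test of a single probe cannot go below p = 0.1, which it gives whenever the arrays of the lines do not overlap. This was the case for 5 of the 10 members (4 higher in PTTG1-/- cells, 1 lower), against 36.1% of all genes (19.5% higher, 16.7% lower).

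**Figure D1:**
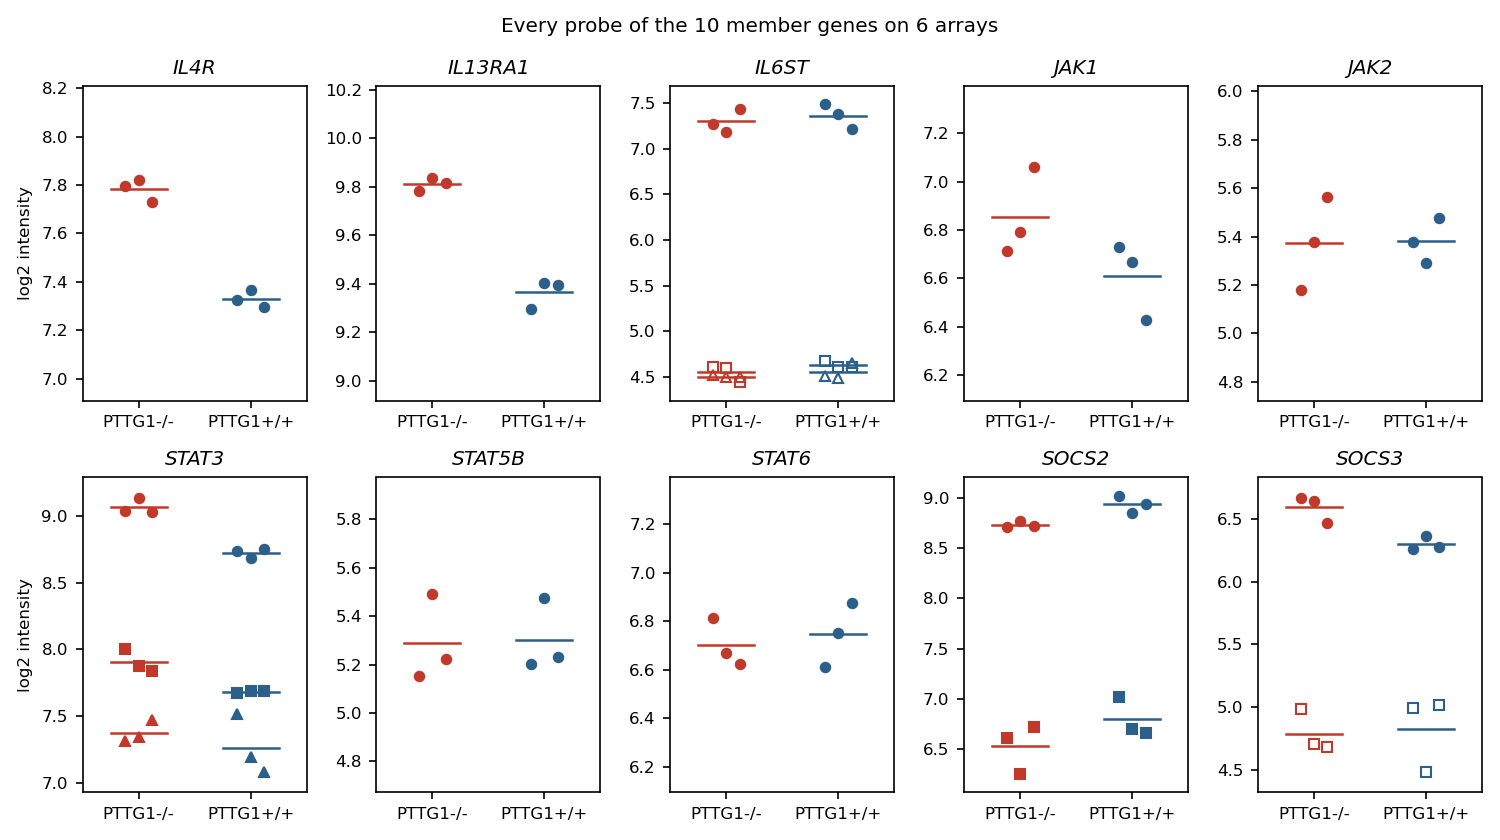
Log2 intensity of every probe of the 10 member genes on the 3 PTTG1-/- arrays (red, left) and the 3 PTTG1+/+ arrays (blue, right). Each point is an array, each line a mean of 3 arrays, marker shapes separate probes of a gene, and open symbols are probes that did not pass the filter on dim probes. The arrays of the lines lie apart for IL4R, IL13RA1, SOCS3, the 2 brighter STAT3 probes and the brighter SOCS2 probe.

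Among the receptors, IL4R was the member with the largest difference. It encodes the alpha chain that binds interleukin 4. Its probe (ILMN_1652185) read 7.79, 7.82 and 7.73 in PTTG1-/- cells, against 7.32, 7.37 and 7.30 in PTTG1+/+ cells. Every PTTG1-/- array lay above every PTTG1+/+ array, and the gap between the lines was several times the spread within either. The means were 7.78 ± 0.05 and 7.33 ± 0.04 (SD, n = 3 each), a difference of 0.45 with a standard error of 0.08 (95% interval 0.28 to 0.63), or 1.37-fold (limma, adjusted p = 0.00664). The gap was also visible before any normalisation, as raw intensities of 250.7, 264.2 and 283.8 in PTTG1-/- cells and 206.1, 197.0 and 197.2 in PTTG1+/+ cells. The study drew IL4R for quantitative PCR from the genes it had called on these arrays, so its direction here is not independent evidence of a change. In that separate assay the paper reports the same direction for IL4R, up-regulated in PTTG1-/- cells.

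IL13RA1, the chain that pairs with IL4R and binds interleukin 13, differed by nearly the same amount. Its probe (ILMN_1768505) read 9.78, 9.84 and 9.82 in PTTG1-/- cells and 9.30, 9.40 and 9.40 in PTTG1+/+ cells. The lines did not overlap, and the lowest PTTG1-/- array stood well clear of the highest PTTG1+/+ array. PTTG1-/- arrays averaged 9.81 ± 0.03 and PTTG1+/+ arrays 9.37 ± 0.06, a difference of 0.45 with a standard error of 0.08 (95% interval 0.27 to 0.62), 1.36-fold (adjusted p = 0.00733). Both chains of the receptor shared by interleukin 4 and interleukin 13 thus rose in PTTG1-/- cells, each measured by a single probe.

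IL6ST, the gp130 chain, was not called. The probe that passed the filter (ILMN_1849013) read 7.27, 7.19 and 7.44 in PTTG1-/- cells and 7.49, 7.38 and 7.22 in PTTG1+/+ cells. The arrays of the lines were interleaved. Their means were 7.30 ± 0.13 and 7.36 ± 0.13, and the difference of -0.06 had a 95% interval of -0.29 to 0.17 (adjusted p = 0.741). This probe is annotated to a GenBank cDNA entry and not to the RefSeq mRNA of IL6ST. The 2 probes annotated to the RefSeq mRNA (ILMN_1746604 and ILMN_1797861) were not above background on any of the 6 arrays, so the level of the RefSeq transcript was not measured.

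The Janus kinases in the set were not called. JAK1 serves the receptors that hold IL4R, IL13RA1 or IL6ST. Its probe (ILMN_1793384) read 6.71, 6.79 and 7.06 in PTTG1-/- cells and 6.73, 6.67 and 6.43 in PTTG1+/+ cells. Replicate 1 of the PTTG1-/- cells lay within the range of the PTTG1+/+ arrays, and the remaining PTTG1-/- arrays lay above it. The difference of 0.25 between 6.86 ± 0.18 and 6.61 ± 0.16 had a 95% interval of -0.02 to 0.51 (adjusted p = 0.211, exact permutation p = 0.2). JAK2, the kinase of the homodimeric receptors such as that of erythropoietin, read 5.18, 5.38 and 5.56 in PTTG1-/- cells and 5.38, 5.29 and 5.48 in PTTG1+/+ cells (ILMN_1683178). This signal was close to background, above it on 2 of 3 PTTG1-/- arrays and all 3 PTTG1+/+ arrays. The JAK2 difference was -0.01, with a 95% interval of -0.26 to 0.24 (adjusted p = 0.975).

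STAT3 was read by 3 probes, and they did not give the same answer. The brightest (ILMN_2401978) read 9.04, 9.13 and 9.03 in PTTG1-/- cells and 8.73, 8.69 and 8.75 in PTTG1+/+ cells. No array of one line reached into the other, and the means of 9.07 ± 0.06 and 8.72 ± 0.03 differed by 0.34 (SE 0.08, 95% interval 0.17 to 0.52), 1.27-fold (adjusted p = 0.0228). The second (ILMN_1663618), annotated to the same transcript entry, read 8.0, 7.88 and 7.84 in PTTG1-/- cells and 7.67, 7.68 and 7.69 in PTTG1+/+ cells. Its lines did not overlap either, but the difference of 0.22 (SE 0.08, 95% interval 0.04 to 0.40) did not pass the test over all probes (adjusted p = 0.109). The third (ILMN_2410986), annotated to another STAT3 transcript entry, read 7.31, 7.34 and 7.47 in PTTG1-/- cells and 7.52, 7.19 and 7.08 in PTTG1+/+ cells. There the highest value of all belonged to a PTTG1+/+ array, and the difference of 0.11 had a 95% interval of -0.16 to 0.38 (adjusted p = 0.59, exact permutation p = 0.5).

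Whether the STAT3 probes moved by different amounts was tested within each array. The first probe minus the second was larger by 0.12 in PTTG1-/- cells (1.16 ± 0.11 against 1.04 ± 0.03 in PTTG1+/+ cells, exact permutation p = 0.3), and the first minus the third was larger by 0.23 (1.69 ± 0.12 against 1.46 ± 0.23, exact permutation p = 0.2). The second minus the third was larger by 0.11 (exact permutation p = 0.6). None of these 3 differences between probes was separable from the spread between arrays. The call of the brightest probe was itself close to the threshold. It was lost when any array except PTTG1-/- replicate 3 was left out, with adjusted p between 0.0538 (without PTTG1-/- replicate 1) and 0.0925 (without PTTG1+/+ replicate 2). With the mean of the 3 probes the difference was 0.23 and the adjusted p was 0.0632.

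STAT5B and STAT6 showed no call. STAT6, the factor that IL4R and IL13RA1 signal through, read 6.82, 6.67 and 6.62 in PTTG1-/- cells and 6.61, 6.75 and 6.87 in PTTG1+/+ cells (ILMN_1763198). Its arrays were fully mixed between the lines, with a difference of -0.04 (95% interval -0.26 to 0.18, adjusted p = 0.818). STAT5B, a factor activated by growth hormone and by interleukin 2, read 5.15, 5.49 and 5.22 in PTTG1-/- cells and 5.20, 5.47 and 5.23 in PTTG1+/+ cells (ILMN_1684034), close to background and above it on 2 of 3 PTTG1-/- arrays. The STAT5B difference was -0.01 (95% interval -0.27 to 0.25, adjusted p = 0.96).

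The SOCS members lay on opposite sides of zero. SOCS3, the inhibitor known for binding gp130 and its kinases, read 6.67, 6.64 and 6.47 in PTTG1-/- cells and 6.27, 6.37 and 6.28 in PTTG1+/+ cells (ILMN_1781001). All PTTG1-/- arrays lay above all PTTG1+/+ arrays, and the difference of 0.29 (SE 0.09, 95% interval 0.09 to 0.49) fell just short of the threshold (adjusted p = 0.0611). Without PTTG1-/- replicate 3, the lowest of its line, the difference was 0.35 and the adjusted p was 0.0276. The other SOCS3 probe (ILMN_2156250) was not above background on any array.

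SOCS2, the inhibitor best known for restraining growth hormone signalling, was the only member with its PTTG1-/- arrays all below its PTTG1+/+ arrays. Its brighter probe (ILMN_2131861) read 8.71, 8.77 and 8.72 in PTTG1-/- cells and 9.01, 8.85 and 8.94 in PTTG1+/+ cells. The means of 8.73 ± 0.03 and 8.93 ± 0.08 differed by -0.20 (SE 0.08, 95% interval -0.39 to -0.02), which did not pass the test (adjusted p = 0.144). The dimmer probe (ILMN_1798926) read 6.61, 6.26 and 6.72 in PTTG1-/- cells and 7.02, 6.70 and 6.67 in PTTG1+/+ cells. These arrays overlapped, and the difference of -0.27 had a standard error of 0.14 (adjusted p = 0.252). The 2 SOCS2 probes differed in their change by 0.07 (exact permutation p = 0.8).

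**Figure D2:**
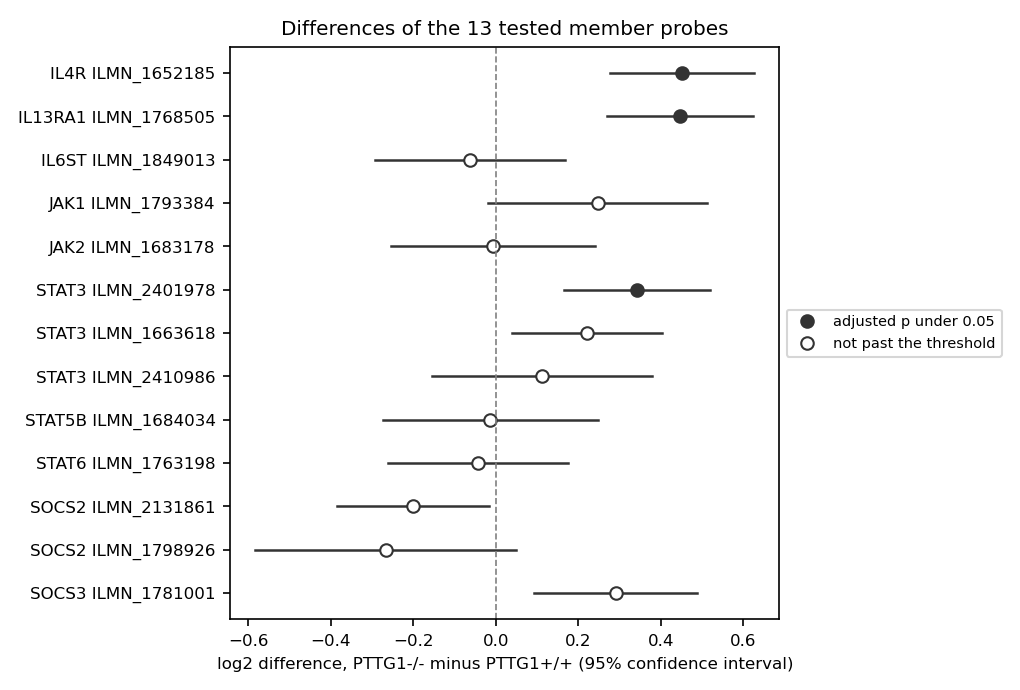
Log2 difference, PTTG1-/- minus PTTG1+/+, of each of the 13 tested member probes with its 95% interval from limma (3 arrays a line). Filled points passed an adjusted p of 0.05 over all 17357 probes. The intervals of IL4R, IL13RA1, SOCS3 and 2 of the 3 STAT3 probes lie above 0, and that of the brighter SOCS2 probe lies below it.

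Differences between members were then taken within each array. A shift of a whole array cancels there, though quantile normalisation had already evened the arrays. The 4 pairs were chosen after the values had been seen, and only their change between the lines can be read, since probes differ in brightness. IL4R minus IL13RA1 was -2.03 ± 0.05 in PTTG1-/- cells and -2.04 ± 0.07 in PTTG1+/+ cells (SD, n = 3 each), a change of 0.01 with overlapping arrays (exact permutation p = 0.9). IL4R minus IL6ST was 0.48 ± 0.18 in PTTG1-/- cells and -0.03 ± 0.12 in PTTG1+/+ cells. STAT3 minus STAT6, with the brightest STAT3 probe, was 2.36 ± 0.13 in PTTG1-/- cells and 1.98 ± 0.13 in PTTG1+/+ cells. The other STAT3 probes were not paired, and the arrays of the third overlapped between the lines. The balance of inhibitors, SOCS3 minus SOCS2, was -2.14 ± 0.11 in PTTG1-/- cells and -2.63 ± 0.14 in PTTG1+/+ cells. In each of these last 3 pairs all PTTG1-/- arrays lay above all PTTG1+/+ arrays (exact permutation p = 0.1, the smallest possible). The changes were 0.52, 0.39 and 0.49. Each pair set a member whose PTTG1-/- arrays all lay higher against a member that was not higher. The separation thus largely follows from that choice and is no further support.

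**Figure D3:**
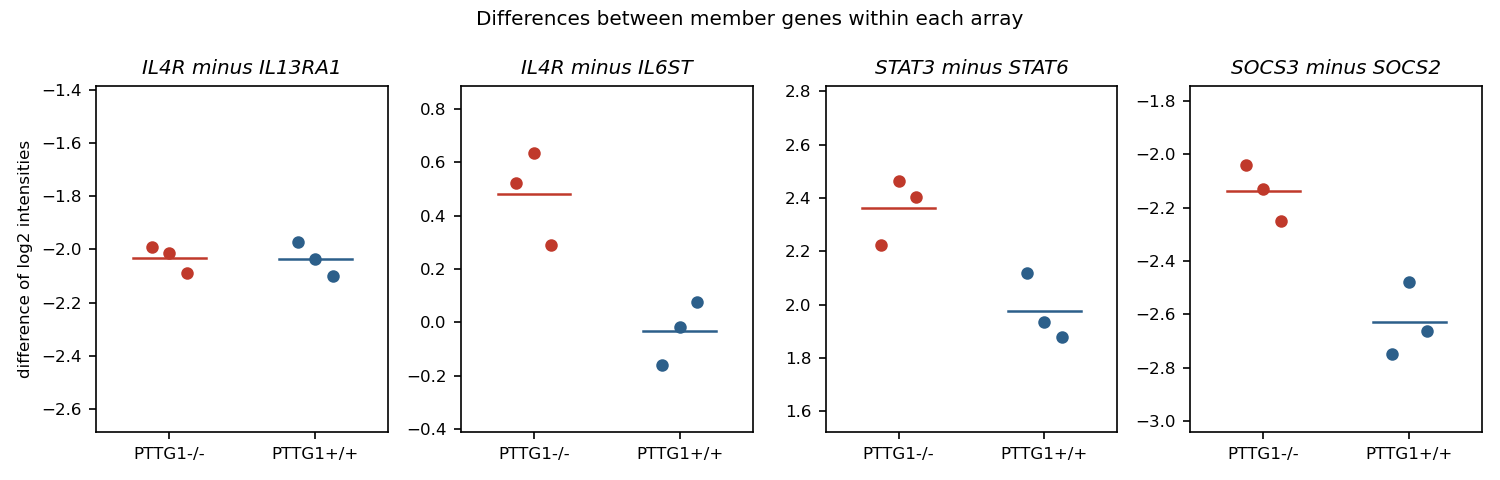
Difference of log2 intensity between 2 member genes on the same array, for 3 PTTG1-/- arrays (red, left) and 3 PTTG1+/+ arrays (blue, right), with lines at the means. Each gene is read by its brightest tested probe, and the pairs were chosen after the values had been seen. IL4R minus IL13RA1 is level between the lines, while IL4R minus IL6ST, STAT3 minus STAT6 and SOCS3 minus SOCS2 are higher on every PTTG1-/- array.

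The other genes of the pathway were counted from lists of ligands, receptors, kinases, factors, inhibitors and targets. Together with the members, 71 different genes of these lists were tested, 15 of them higher and 4 lower in PTTG1-/- cells, with a median difference of 0.04. Without the 10 members 12 of 61 genes were higher and 4 were lower. These counts come to 26.8% and 26.2% called, against 14.4% of all genes tested. Among the higher genes, SOCS1 and IL15RA passed the filter only through their PTTG1-/- arrays, so their direction was set by the filter. The lists were chosen with earlier results of these arrays known.

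Most ligand genes were silent on the arrays. Of 27 listed genes 25 had a probe and 5 were tested, while 19, among them IL6, IL11, OSM, IL4 and IL13, were above background on no array. The genes of the ligands of IL4R and IL13RA1 therefore gave no signal in either line. LIF, a member of the interleukin 6 family that signals through gp130, read 7.99, 7.76 and 7.89 in PTTG1-/- cells and 7.24, 7.41 and 7.42 in PTTG1+/+ cells, a rise of 0.52 (SE 0.10, adjusted p = 0.00855). EBI3, a subunit of interleukin 27, rose by 0.80 (6.04 ± 0.07 against 5.23 ± 0.34 in PTTG1+/+ cells, where 1 of 3 arrays was above background, adjusted p = 0.0103). IL10, LEP and IL15 had differences of -0.10, -0.13 and 0.11 and were not called. The IL10 value is that of ILMN_2073307, and the other IL10 probe (ILMN_1674167) was above background on no array.

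Among the partners of gp130, 4 of 10 listed genes were tested and 1 was called. OSMR, the oncostatin M receptor chain that joins gp130, read 6.11, 5.87 and 6.36 in PTTG1-/- cells and 5.59, 5.71 and 5.69 in PTTG1+/+ cells, a rise of 0.45 (SE 0.12, adjusted p = 0.0425). The arrays did not overlap, but the call was lost when any array except PTTG1-/- replicate 2 was left out, at an adjusted p of 0.0667 to 0.127. IL27RA and LEPR had differences of 0.02 and -0.18 (adjusted p = 0.916 and 0.523). IL6R was above background on no array, and LIFR stayed under the filter. IL11RA had no probe in the annotation used here and was not analysed, although the paper reports it as up-regulated in PTTG1-/- cells.

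Of the family of interleukin 4, interleukin 13 and common gamma chain receptors, 5 of 11 genes were tested, and 3 rose in PTTG1-/- cells, IL4R, IL13RA1 and IL15RA. IL15RA presents interleukin 15, and its one tested probe (ILMN_1665682) read 5.41, 5.20 and 5.65 in PTTG1-/- cells and was not above background on any PTTG1+/+ array, which puts that probe at least 1.18-fold higher under the processing used here (adjusted p = 0.034). Its other probes did not pass the filter, and of these ILMN_1693910 averaged 5.02 in PTTG1-/- cells, above background on 0 arrays, and 5.13 in PTTG1+/+ cells, above background on 1. The call of ILMN_1665682 was lost without any of the PTTG1+/+ arrays (adjusted p 0.0715 to 0.103). That probe passed the filter only through its 3 PTTG1-/- arrays, so its direction was set by the filter. IL9R and CRLF2 were not called (0.07 and -0.18). IL2RG, the common gamma chain that pairs with IL4R on blood cells, did not pass the filter, and the decoy receptor IL13RA2 was above background on no array.

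IL20RB, a chain of the receptors for interleukin 20 and its relatives, had the largest difference among all receptors counted. It read 5.42, 5.82 and 5.64 in PTTG1-/- cells and 7.02, 6.85 and 7.18 in PTTG1+/+ cells, far apart on every array. The log2 difference of -1.39 (SE 0.12) had an adjusted p of 0.000229, and IL20RB was the only called gene among 7 tested receptors of the interferon and interleukin 10 families. IFNGR2, IL10RB and IFNGR1 had differences of 0.04, 0.03 and 0.14. Of 4 tested receptors of the homodimeric and beta common types none was called by limma, with 1 at an unadjusted p under 0.05 (CRLF3, 0.25, adjusted p = 0.11), and CSF2RA and EPOR at -0.11 and -0.01.

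TYK2, the Janus kinase of interferon receptors, had a difference of 0.14 (adjusted p = 0.434), and JAK3 stayed under the filter. Of the 3 tested Janus kinases none was called by limma, and none had an unadjusted p under 0.05. STAT4, the factor of interleukin 12 signalling, was the other STAT gene called. It read 6.61, 6.71 and 6.71 in PTTG1-/- cells and 6.29, 6.24 and 6.42 in PTTG1+/+ cells, a rise of 0.36 (SE 0.09, adjusted p = 0.0259). That call was lost without PTTG1-/- replicate 2, PTTG1+/+ replicate 1 or PTTG1+/+ replicate 2 (adjusted p 0.0826 to 0.106). STAT5A was above background on no array.

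SOCS1, the inhibitor that binds Janus kinases directly and is a known target of STAT6, was the only called gene of 6 tested in the SOCS family. This gene passed the filter only through its 3 PTTG1-/- arrays, so its direction was set by the filter. It read 5.55, 5.64 and 5.64 in PTTG1-/- cells and was not above background on any PTTG1+/+ array, a rise of at least 1.35-fold under the processing used here (adjusted p = 0.00173). Its log2 difference of 0.67 was 0.32 with the normexp background and an offset of 50 and 0.39 with the authors' values, both under that bound and both called. SOCS4, SOCS5 and SOCS7 had differences of -0.21, 0.06 and 0.10 and were not called. Among 11 other inhibitors, PIAS3, a protein that blocks DNA binding by STAT3, was called. PIAS3 averaged 7.08 ± 0.20 in PTTG1-/- cells and 6.59 ± 0.07 in PTTG1+/+ cells, a rise of 0.49 (adjusted p = 0.0207) that was lost without PTTG1-/- replicate 1, PTTG1+/+ replicate 1 or PTTG1+/+ replicate 3 (adjusted p 0.0641 to 0.0674). The phosphatase genes PTPN11 and PTPN1 fell just short of the threshold on opposite sides of zero, at -0.31 (adjusted p = 0.0546) and 0.26 (adjusted p = 0.0605), and TRIM28 was at -0.08.

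**Figure D4:**
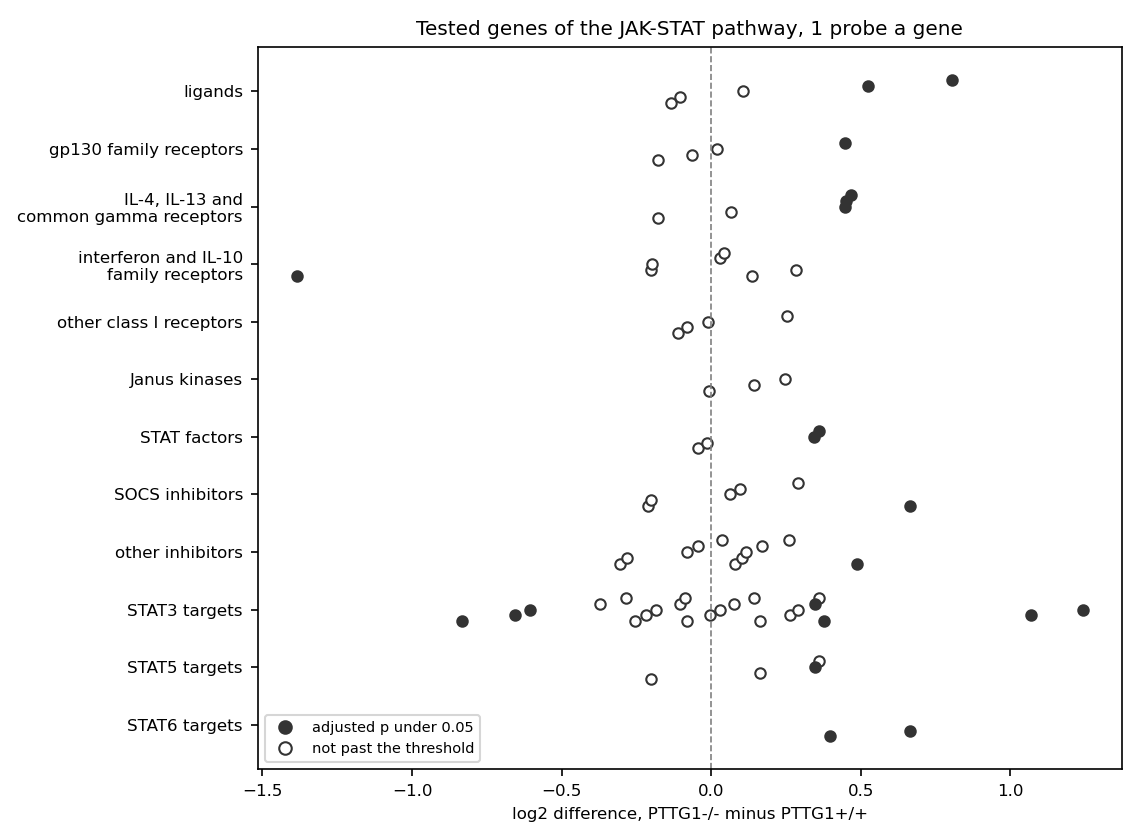
Log2 difference, PTTG1-/- minus PTTG1+/+, of every tested gene of the pathway lists, 1 probe a gene, 3 arrays a line. Filled points passed an adjusted p of 0.05 over all probes, and a gene in 2 lists is drawn in both. The points furthest from 0 are IL20RB (-1.39) and the STAT3 targets TWIST1 (1.24) and SERPINA3 (1.07).

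Genes known as targets of STAT3 went both ways. Of 30 listed genes 23 were tested, 4 rose and 3 fell in PTTG1-/- cells, and their median difference was -0.004, beside 0.001 over all genes. TWIST1, a factor of mesenchymal cells, had the largest rise (7.37, 7.37 and 7.22 in PTTG1-/- cells against 6.24, 5.84 and 6.16 in PTTG1+/+ cells, 1.24, adjusted p = 0.000269). SERPINA3, an acute phase protein, rose by 1.07 (6.29, 6.55 and 6.51 against 5.18, 5.42 and 5.54 in PTTG1+/+ cells, adjusted p = 0.000609). In both genes every PTTG1-/- array was above every PTTG1+/+ array. TIMP1, an inhibitor of metalloproteinases, rose by 0.38 (adjusted p = 0.0298) and BCL2L1, which protects from apoptosis, by 0.35 (adjusted p = 0.0277), but leaving out any array except PTTG1-/- replicate 1 ended the call of TIMP1 (adjusted p between 0.0521 and 0.105), and leaving out any except PTTG1-/- replicate 3 ended that of BCL2L1 (between 0.0525 and 0.0915).

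By the brightest tested probe of each gene, the 3 STAT3 targets that fell were LCN2, CEBPB and MMP9. LCN2, an iron carrier of the acute phase, read 5.93, 5.87 and 6.08 in PTTG1-/- cells and 6.79, 6.76 and 6.83 in PTTG1+/+ cells (fell by 0.83, adjusted p = 0.000513). CEBPB, a factor of the acute phase response, read 11.60, 11.48 and 11.45 in PTTG1-/- cells and 12.14, 12.13 and 12.24 in PTTG1+/+ cells (fell by 0.66, adjusted p = 0.00155). It too was drawn for quantitative PCR from these arrays, and the paper reports it as down-regulated in that assay as well. MMP9, a metalloproteinase, fell by 0.61 (adjusted p = 0.0114), with 2 of 3 PTTG1-/- arrays above background. CCND1, MYC and BIRC5, textbook STAT3 targets of proliferating cells, were not called, at 0.27, -0.09 and -0.29 (adjusted p = 0.0563, 0.555 and 0.0699). The dimmer BIRC5 probe (ILMN_1803124) was at 0.007 (adjusted p = 0.971). MCL1 was not called at its brightest probe (-0.18, adjusted p = 0.19). Its dimmer probe (ILMN_1756806), above background on 2 of 3 PTTG1-/- arrays, was called lower (-0.44, adjusted p = 0.0425).

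Targets of STAT5 and STAT6 were few. Of 10 STAT5 targets 4 were tested, and BCL2L1 was the only one called, beside SOCS2, BCL6 (0.16) and PIM1 (0.36, adjusted p = 0.0533). Of 13 STAT6 targets only SOCS1 and CCL26 were tested, and both were higher in PTTG1-/- cells. For SOCS1, which passed the filter only through its PTTG1-/- arrays, that direction was set by the filter and is no support. CCL26, an eosinophil chemokine, had a difference of 0.40 that only just passed (adjusted p = 0.0499). The call held in 2 of 16 alternatives, with a filter on all 6 arrays and without PTTG1-/- replicate 3 (range over all 0.0379 to 0.175), and it was lost without each of the other arrays (0.0781 to 0.158).

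The genes whose brightest probe followed that of STAT3 most closely over the 6 arrays were OASL, KRT19, CARD19, IFI6 and DVL3, with Pearson's r of 0.999, 0.997, 0.996, 0.996 and 0.996. These are descriptions over arrays that share only 2 cell lines, so any gene that differs between the lines with little spread scores high. The difference between the lines was 0.77 for OASL and 0.72 for IFI6, which are interferon-induced genes, 0.50 for CARD19, 0.31 for DVL3 and 0.24 for KRT19.

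Markers of cell types were read beside these results. Summed levels are on the linear scale after normalisation, over the brightest probe of every listed marker with a probe, tested or not. Of 13 markers of colon epithelium 7 were tested. Of these, 2 were lower in PTTG1-/- cells, CDH1 by 0.53 (adjusted p = 0.00643) and EPCAM by 0.32 (adjusted p = 0.0493). The summed level of the colon epithelium markers was 15437 to 16246 on PTTG1-/- arrays and 15913 to 16416 on PTTG1+/+ arrays. KRT19 was 12.86 in PTTG1-/- cells and 12.63 in PTTG1+/+ cells and was not called (adjusted p = 0.0781), and CDX1, VIL1, CDH17, LGALS4 and CLDN4 were above background on no array. Of 12 blood markers 3 were tested and 2 rose, CD68 (0.56, adjusted p = 0.00338) and HBA1 (0.44, adjusted p = 0.0373), a globin gene nearly identical to HBA2, with a summed level of 582 to 650 on PTTG1-/- arrays and 481 to 516 on PTTG1+/+ arrays. The defining blood markers PTPRC, CD3D, CD3E, ITGAM, LYZ and MS4A1 were above background on no array. Of 10 fibroblast markers ACTA2 rose (0.87, adjusted p = 0.000322) and COL1A1 was not called, with a summed level of 1003 to 1052 on PTTG1-/- arrays and 641 to 708 on PTTG1+/+ arrays, while the other 8, among them COL1A2, COL3A1, DCN and LUM, were above background on no array. Of 11 tested genes that every cell uses, 1 was called, B2M (0.30, adjusted p = 0.0397), and ACTB, GAPDH and YWHAZ had differences of 0.22, 0.10 and 0.04 and were not. Whether any of these marker genes bears on the receptor and STAT3 results was not tested.

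Under 16 other ways of processing, left-out arrays included, the IL4R and IL13RA1 probes were called in all 16, and the brightest STAT3 probe in 8. The brighter SOCS3 probe was called in 2, with a filter on all 6 arrays and without PTTG1-/- replicate 3.

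**Figure D5:**
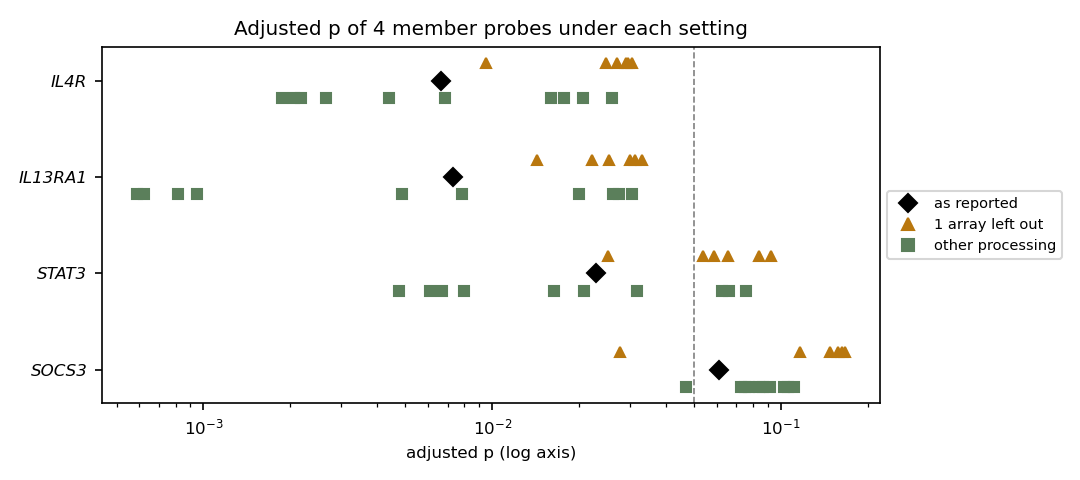
Adjusted p (log axis) of the IL4R, IL13RA1, brightest STAT3 and brighter SOCS3 probes as reported (diamonds), with 1 array left out (triangles) and under other processing (squares), with the dashed line at 0.05. IL4R and IL13RA1 stay left of the line throughout, while STAT3 and SOCS3 lie on both sides of it.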

How the data were processed

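The authors deposited, for each of 6 Illumina HumanHT-12 V4 arrays (1 colour), an unnormalised linear intensity per probe. Beside it they deposited a fraction headed as a detection p that rises with intensity, so 1 minus that fraction was used. The authors' processed log2 values, with a median of 6.07 on every array, were used as an alternative only. Their methods name the manufacturer's protocol and Partek, and a general Student's t-test; the normalisation is not given in the sources used here. Lines without a probe name (12) were left out.

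In R 4.3.3, limma 3.58.1 corrected background (neqc, offset 16, negative controls inferred from the detection p), normalised by quantiles and took log2. Probes with a detection p under 0.05 on at least 3 of 6 arrays were kept (17357 probes). Each was tested by lmFit and eBayes, adjusted by Benjamini-Hochberg over all of them, and called at an adjusted p under 0.05. A gene was represented by its brightest tested probe (10642 genes). Of the 47310 probes 30107 have 1 gene in the platform annotation, 8 have several and 17195 have none, and symbols were updated through the gene table. A probe above background on no array of a line has only a bound there, computed against the lowest level above background. Arrays have no read depth, and their number limits the precision. The fit was tested on simulated data.

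The genes named are all members with every probe, PTTG1, and every called gene of each pathway list with up to 3 further bright ones. The brightest and the called markers, the 5 genes most like STAT3, and MCL1 for its called dimmer probe were named too. The members and lists were chosen with earlier results of these data known. Alternatives were other background corrections and normalisations, the authors' values, other filters, another variance model, gene-level fits, the methods' t-test, a block for the replicate number and leaving out each array.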

Additional observations from a re-analysis of the deposited data

How the results depend on the processing

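IL4R and IL13RA1 were called in 16 of 16 alternatives each, with differences of 0.35 to 0.48 (adjusted p 0.00187 to 0.0304) and of 0.41 to 0.47 (adjusted p 0.00059 to 0.0331). The brightest STAT3 probe kept its direction in all 16 (0.31 to 0.37) and was called in 8 of them (adjusted p 0.00476 to 0.0925); it was lost with median scaling, without normalisation, with the replicate block and without 5 of the 6 arrays in turn. SOCS3 was called with a filter on all 6 arrays (adjusted p = 0.0468), without PTTG1-/- replicate 3, and in gene-level fits with genes collapsed to the brightest probe (0.0423) or averaged over probes (0.0395). Uncalled members changed sign with 1 array left out: JAK2 spanned -0.10 (without PTTG1-/- replicate 3) to 0.09 (without PTTG1-/- replicate 1), STAT5B spanned -0.115 (without PTTG1-/- replicate 2) to 0.073 (without PTTG1+/+ replicate 2), and STAT6 spanned -0.11 (without PTTG1+/+ replicate 1) to 0.021 (without PTTG1+/+ replicate 3). LIF, EBI3 and MMP9 lost their calls only with the methods' t-test, and CEBPB, IL20RB, LCN2, SERPINA3 and TWIST1 were called in all 16 alternatives. SOCS1 was called in the 12 alternatives that tested it. All of these except the fit without a filter admitted it only through its PTTG1-/- arrays, so that count is no support. SOCS1 did not pass the filter when any PTTG1-/- array was left out, or with a filter on all 6 arrays. Differences of dim probes were smaller with the normexp background and an offset of 50, which compresses low values: IL20RB was -0.81, SERPINA3 0.56, LCN2 -0.49, TWIST1 0.80, EBI3 0.39, MMP9 -0.29, OSMR 0.23, IL15RA 0.23, STAT4 0.22 and CCL26 0.19. As ratios of measured means in place of bounds, IL15RA was 1.38-fold and SOCS1 1.58-fold higher, and PTTG1 was 56.9-fold lower at the probe ILMN_1753196.

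Over all probes 2215 were called, against 2940 with the normexp background, 2907 with a variance trend, 2797 without background correction, 2796 with the authors' values, 1345 with median scaling, 1212 without normalisation and 1020 with the methods' t-test (4248 at an unadjusted p under 0.05), and between 1085 (without PTTG1+/+ replicate 2) and 2562 (without PTTG1-/- replicate 3) with 1 array left out. The count was over 1.5 times lower without any array other than PTTG1-/- replicate 3. Member genes called were 3, and 2 to 4 with 1 array left out. Pathway genes called were 19, against 26 with the normexp background, 24 without background correction, with the authors' values and with a variance trend, 11 with median scaling, without normalisation and with the methods' t-test, and 11 to 20 with 1 array left out. The cause of these shifts was not tested.

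Arrays of the lines share replicate numbers, but same-numbered arrays deviated from their line's mean with correlations of -0.074, -0.004 and -0.116, so the numbers were not taken as pairs. With the replicate number as a block 1351 probes and 12 pathway genes were called, and the brightest STAT3 probe had an adjusted p of 0.066.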
